A study of Homo sapiens with 4 samples.

Results

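The S100 genes encode small calcium-binding proteins, and 10 of them were examined here, chosen by gene name: S100A2, S100A3, S100A4, S100A6, S100A8, S100A9, S100A10, S100A11, S100A13 and S100P. They are 10 of the 21 S100 family names among the 26485 gene names of each expression table. The mRNA of SW1736 and 8505C, established human cell lines derived from anaplastic thyroid cancer (ATC), was sequenced as paclitaxel-sensitive parental cells (wt) and as paclitaxel-resistant cells (PTX). The PTX cells, SW1736-PTX and 8505C-PTX, were obtained over 6 months in which the dose of paclitaxel was raised from 1 nM up to 1.5 µM, and stayed in medium with 1.5 µM afterwards, while the wt cells were grown in the same medium without the drug. Each of the 4 conditions is 1 mRNA library made from total RNA and read single-end at 75 bp, so no difference could be set against the spread between cultures and no p-value is given. The drug is a taxane that stabilizes microtubules, and since the PTX cells were collected from medium that held it, selection and the presence of the drug cannot be told apart.

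S100 proteins carry a pair of EF-hands, the helix-loop-helix fold that holds a calcium ion, and most work as dimers that open on calcium binding and then grip a target protein. Inside cells they act on the cytoskeleton, on annexins at membranes and on cell growth, and some are released and bind receptors such as AGER and TLR4. Most of the genes stand in the epidermal differentiation complex of chromosome 1. Many are used as tumor markers, S100A4 for motile and metastatic cells and S100A2 for basal epithelial cells.

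The parental origin of the SW1736-PTX library was first checked against thyroid and keratin genes, because every comparison in SW1736 rests on it. PAX8, a transcription factor of thyroid follicular cells, was at 38.2 FPKM in SW1736 wt cells, 0.206 in SW1736-PTX, 0.123 in 8505C wt and 0.146 in 8505C-PTX. FPKM is the number of aligned fragments per kilobase of transcript, scaled to the library's depth. FOXE1, another thyroid factor, was at 26.6, 0.511, 0.0443 and 0.178 FPKM in this order. NKX2-1, the third, was listed at 0 in SW1736 wt and was at 36.3 FPKM in SW1736-PTX, 30.5 in 8505C wt and 39 in 8505C-PTX. For these genes, and for the keratin KRT19 (266, 0.535, 0 and 0 FPKM), the library labelled SW1736-PTX resembled both 8505C libraries and not SW1736 wt. CALB2, an EF-hand gene, went the other way, with 1.78 FPKM in SW1736 wt cells and 21.2 in SW1736-PTX against 0 in 8505C wt and 0.0665 in 8505C-PTX. MYH10, a nonmuscle myosin gene, did so too. It was at 8.74 FPKM in SW1736 wt cells and 8.44 in SW1736-PTX, but at 31.5 in 8505C wt and 32.8 in 8505C-PTX. Each member's result in SW1736-PTX, and each call of another S100 gene, neighbour, partner or EF-hand gene there, is therefore given against its labelled parent and against 8505C wt, and the reason for the resemblance was not tested. Of the other follicular markers, TSHR and SLC5A5 were listed at 0 in all 4 libraries and TG did not exceed 0.00586 FPKM. Among the epithelial markers, KRT8 was between 331 and 974 FPKM and KRT18 between 257 and 1437, while EPCAM and CDH1 stayed at or below 0.0806. ABCB1, the drug efflux pump taken as the check of the resistant libraries, was at 0 and 0.363 FPKM in SW1736 wt cells and 8505C wt and at 302 and 497 in SW1736-PTX and 8505C-PTX. The depth, estimated from the coverage and FPKM columns, was 43.5 to 57.8 M reads, and it was higher in each PTX library than in its wt library.

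S100A2, S100A3, S100A4, S100A6 and S100P are the members whose levels differed most between PTX and wt cells, so the DNA in front of their starts is shown, from RefSeq on build GRCh38.p14. For S100A2 (chr1:153565845-153566094), S100A3 (chr1:153549259-153549508) and S100A4 (chr1:153545807-153546056), all on the minus strand, the 250 bases before the RefSeq start are given 5′ to 3′. For S100A6 (chr1:153536056-153536085, minus strand) and S100P (chr4:6693846-6693875, plus strand), where the gene in the expression tables begins before the RefSeq start, 30 bases around the matches are given. Capitals mark a TATA box (TATAAA), an AP-1 site (TGANTCA) or a GC box (GGGCGG), each searched on both strands with overlapping matches kept.
S100A2: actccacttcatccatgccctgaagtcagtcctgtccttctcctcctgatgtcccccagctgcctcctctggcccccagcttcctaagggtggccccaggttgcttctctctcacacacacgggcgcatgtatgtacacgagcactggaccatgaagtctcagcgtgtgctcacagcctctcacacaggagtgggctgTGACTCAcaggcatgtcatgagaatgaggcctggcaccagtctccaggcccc
S100A3: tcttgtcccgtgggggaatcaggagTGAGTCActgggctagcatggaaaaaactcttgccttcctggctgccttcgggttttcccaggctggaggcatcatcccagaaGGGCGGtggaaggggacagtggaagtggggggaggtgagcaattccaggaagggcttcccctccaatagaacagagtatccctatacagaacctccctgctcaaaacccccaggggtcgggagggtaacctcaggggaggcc
S100A4: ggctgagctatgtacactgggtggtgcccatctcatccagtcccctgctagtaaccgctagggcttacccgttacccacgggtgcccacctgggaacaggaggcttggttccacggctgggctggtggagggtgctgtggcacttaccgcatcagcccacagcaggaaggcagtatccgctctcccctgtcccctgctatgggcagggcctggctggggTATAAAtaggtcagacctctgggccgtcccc
S100A6: gcgcGGGCGGgacttGGGCGGGCGGggtgg
S100P: gcctTATAAAgcaccaagaggctgccagtg
S100A4 and S100P held a TATA box, beginning 31 and 28 bases before the start. S100A2 held an AP-1 site at 52 bases and S100A3 held an AP-1 site at 225 bases and a GC box at 142. The 3 GC boxes of S100A6 began at 90, 79 and 75 bases, and the last 2 overlap. Of the 10 members, 3 had a TATA box, 2 an AP-1 site and 6 a GC box in the 250 bases, and 0 had a kappaB site. In the windows of 27305 genes, one start per gene, the shares were 11.1%, 6.6%, 42.3% and 9.57%, in that order. No motif was found in all 4 members that were higher in PTX cells, and a match of letters does not show that a factor binds.

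In each line, 8 of the 10 members passed 0.5 FPKM in wt or PTX cells and were compared. Each change is the log2 of the PTX level over the wt level after 0.1 FPKM was added to both, a scale that makes changes of weakly expressed genes look smaller, and a gene was called when the value was beyond 1.5 in either direction. In SW1736, 5 of the 8 compared members were called, beside 25.9% of all 14202 genes compared. S100A3, S100A4, S100A6 and S100P were higher in SW1736-PTX, beside 15.7% of all genes called higher, and S100A2 was lower, beside 10.2% called lower. In 8505C, 5 of 8 were called as well, beside 20.9% of 13794 genes, and they were the same 5 genes in the same directions (15% of all genes were called higher and 5.89% lower). Over the 13304 genes compared in both lines, 9.78% were called in the same direction in both. Counting error alone leaves some calls of members open. Its interval of the log2 ratio spanned the limit for S100A3 and S100A6 in SW1736. In 8505C it did so for S100A2, S100A3 and S100A4, while that of S100A6 (1.68 to 1.75) lay beyond the limit. S100P, listed at 0 in both wt libraries, has no such interval. The median change of the 8 members was 0.46 in SW1736 and 1.04 in 8505C, beside medians of 0.01 and 0.11 over all genes compared. The members' medians were the same with S100P set to 3 reads in the wt libraries. That setting could not move them, because S100P stays among the higher members either way. A member that is compared only because of its high library had to differ, which holds for S100P in both lines, S100A4 in SW1736 and S100A3 in 8505C. Among members above 0.5 FPKM in both libraries of a pair, 3 of 6 were called in SW1736 (S100A2, S100A3 and S100A6; 14.4% of all genes under the same rule) and 3 of 6 in 8505C (S100A2, S100A4 and S100A6; 13.4%). In bulk RNA, more cells with a transcript and more transcript per cell cannot be told apart.

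**Figure D1:**
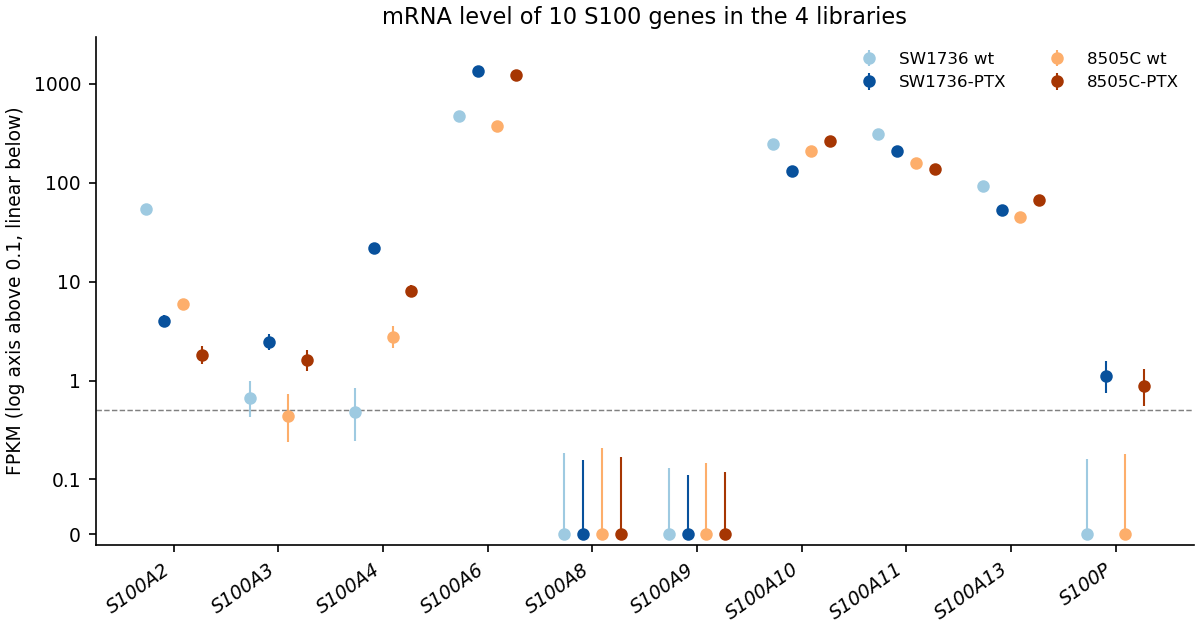
FPKM of the 10 S100 genes in the 4 libraries, on a log axis above 0.1 and a linear one below; points are single libraries, bars are approximate 95% counting intervals and the dashed line is 0.5 FPKM. S100A6 lies at 1243 and 1361 in the PTX libraries and at 379 and 477 in the wt libraries, and S100A8 and S100A9 lie at 0 throughout.

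S100A6, also called calcyclin, binds annexins and the ubiquitin ligase adaptor CACYBP, and it was the most abundant member in every library. Its level was 477 FPKM in SW1736 wt cells and 1361 in SW1736-PTX, and 379 in 8505C wt and 1243 in 8505C-PTX. Both PTX libraries were above both wt libraries. The change was 1.51 in SW1736, next to the limit of 1.5, and 1.71 in 8505C. With TPM, which scales each library to the same total, the change in SW1736 was 1.47 and was no longer called. Against the wt library of the other line, SW1736-PTX was higher by 1.84 and 8505C-PTX by 1.38, the latter not called. Counting error is small at this level, the 95% interval of the log2 ratio in SW1736 reaching from 1.48 to 1.55 on an estimated 34178 and 10111 reads. S100A6 ranked 130 among all gene names in SW1736 wt cells and 46 in SW1736-PTX, and 154 in 8505C wt and 58 in 8505C-PTX.

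S100A4, or metastasin, binds nonmuscle myosin heavy chain and is known from motile and mesenchymal cells. It was at 0.482 FPKM in SW1736 wt cells, 21.9 in SW1736-PTX, 2.77 in 8505C wt and 8.06 in 8505C-PTX. Both PTX levels were above both wt levels, and the wt lines themselves differed. The change was 5.24 in SW1736, the largest of any member with reads in both libraries, from an estimated 12 reads to 650. In 8505C it was 1.51, with a counting interval of the log2 ratio from 1.12 to 1.96 that spans the limit. The call in 8505C was lost with TPM (1.49) and with changes centred on the median of all genes (1.40). Against the other parent the values were 2.94 for SW1736-PTX and 3.81 for 8505C-PTX, so S100A4 was called against each wt library.

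S100A3, best known as a zinc-binding protein of the hair cuticle, was low in all libraries, with 0.666 FPKM in SW1736 wt cells, 2.47 in SW1736-PTX, 0.442 in 8505C wt and 1.61 in 8505C-PTX. Its changes of 1.75 and 1.66 rest on an estimated 24 and 106 reads in SW1736 and 14 and 64 in 8505C, with counting intervals of the log2 ratio from 1.25 to 2.60 and from 1.04 to 2.84. Against the other parent SW1736-PTX was higher by 2.25, while 8505C-PTX was higher by 1.16, which was not called. S100P, first described in placenta and a ligand of AGER and ezrin, was listed at 0 in SW1736 wt and 8505C wt, where 3 reads would have given 0.13 and 0.146 FPKM. It was at 1.1 FPKM in SW1736-PTX and 0.872 in 8505C-PTX, from an estimated 30 and 22 reads. S100P was thus detected in the PTX libraries alone, at a low level, and a fold change against 0 is not given.

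S100A2, expressed in basal epithelial cells and a known target of p53 family factors, was the member with lower levels in PTX cells. It was at 54.1 FPKM in SW1736 wt cells, 4.04 in SW1736-PTX, 5.95 in 8505C wt and 1.82 in 8505C-PTX. SW1736 wt stood far above the other libraries, and the PTX library was the lower one in each line. The change was -3.71 in SW1736 and -1.66 in 8505C, with counting intervals of the log2 ratio from -3.95 to -3.55 and from -2.07 to -1.37. Against 8505C wt, however, SW1736-PTX was lower by 0.55, and this was not called, so the large decrease in SW1736 depends on which wt library is the reference. The value of 8505C-PTX against SW1736 wt was -4.82.

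**Figure D2:**
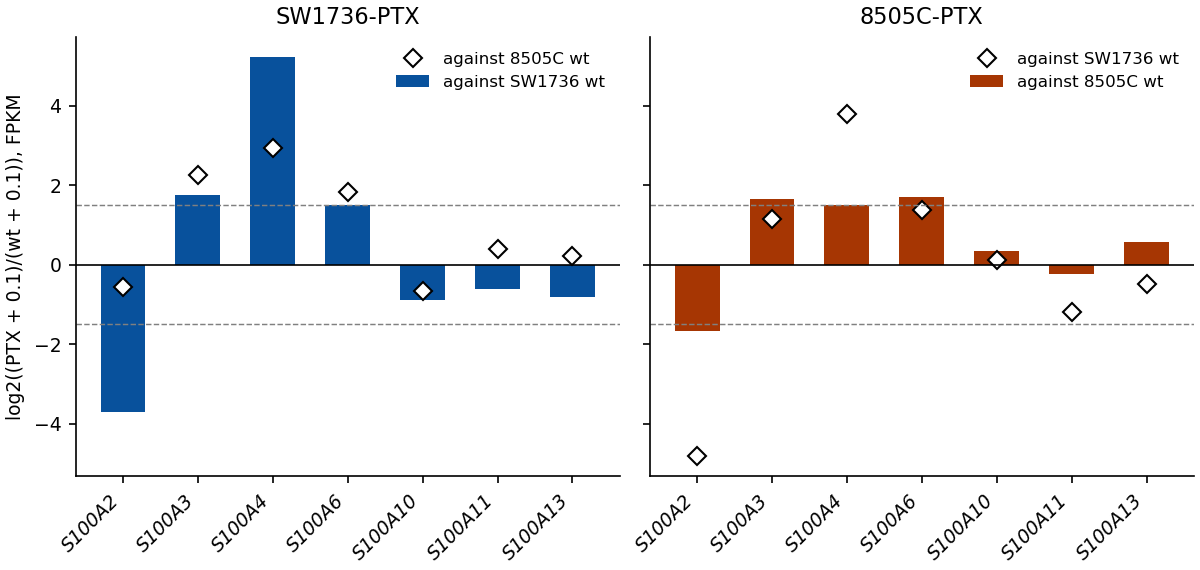
Change on the log2(FPKM + 0.1) scale of the 7 members detected in both libraries of each pair, in SW1736-PTX (left) and 8505C-PTX (right); bars are against the wt cells of the same line, diamonds against the wt cells of the other line, and dashed lines mark 1.5 and -1.5. S100A4 and S100A6 are above 0 against each reference and S100A2 is below 0 against each, but in SW1736-PTX the S100A2 value moves from -3.71 to -0.55.

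S100A10, S100A11 and S100A13 were abundant and were not called in either line. S100A10, also called p11, pairs with ANXA2 at the cell surface, where the complex binds plasminogen and its activator, and unlike most of the family it does not need calcium to bind. It was at 244 FPKM in SW1736 wt cells, 133 in SW1736-PTX, 208 in 8505C wt and 263 in 8505C-PTX. The change was -0.88 in SW1736 and 0.34 in 8505C, and the PTX libraries held both the lowest and the highest level. S100A11, a partner of ANXA1, was at 314, 208, 159 and 137 FPKM in this order, with changes of -0.60 and -0.22. Both 8505C libraries were below both SW1736 libraries. GENCODE release 44 lists 8 processed pseudogenes of S100A11, which share sequence with it, so its level is uncertain. S100A13, which takes part in the release of FGF1 and IL1A, proteins without a signal peptide, was at 93, 52.8, 44.8 and 66.8 FPKM, with changes of -0.82 and 0.57. The FPKM of S100A13 was 2.22 to 2.31 times the value that its deposited coverage gives in all 4 libraries, while for the other detected members this factor was between 0.999 and 1.1. From coverage its level would lie between 20.0 and 40.3 FPKM, so its place relative to other genes is uncertain, and the order of the libraries is the same. Against 8505C wt, SW1736-PTX differed by -0.65 for S100A10, 0.39 for S100A11 and 0.23 for S100A13, so the sign of the latter 2 depends on the reference.

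S100A8 and S100A9, which together form calprotectin of neutrophils and monocytes, were listed at 0 in all 4 libraries. A count of 3 reads would have given 0.127 to 0.169 FPKM for S100A8 and 0.0905 to 0.12 for S100A9, so transcripts below those levels were not detectable at this depth. Such floors and the intervals above cover counting error only. Of 7 myeloid markers 1 was above 0.5 FPKM in each library, CD14, at 0.894 in SW1736 wt, 0.707 in SW1736-PTX, 0.576 in 8505C wt and 4.5 in 8505C-PTX. The summed level of the 7 lay between 0.576 and 4.6 FPKM, and PTPRC and LYZ did not exceed 0.0328.

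In order of deposited FPKM, S100A6 came first in every library and S100A13 came next after S100A10 and S100A11. S100A11 was above S100A10 in both SW1736 libraries, and S100A10 was above S100A11 in both 8505C libraries. Below these members S100A2 stood above S100A4 in the wt libraries and below it in the PTX libraries. Neighbours in this order differed beyond their counting intervals except S100A3 and S100A4 in SW1736 wt, and S100A2, S100A3 and S100P in 8505C-PTX. The intervals of S100A13 rest on its deposited FPKM. From coverage S100A13 would lie at 40.3 FPKM in SW1736 wt, below S100A2 at 54.2, so its place there is uncertain. The sum over the 10 members was 1183 FPKM in SW1736 wt cells, 1784 in SW1736-PTX, 800.4 in 8505C wt and 1723 in 8505C-PTX, or 0.27%, 0.394%, 0.183% and 0.384% of the TPM of the library. S100A6 made up 40.3% of the summed FPKM in SW1736 wt cells and 76.3% in SW1736-PTX, and 47.4% in 8505C wt and 72.2% in 8505C-PTX. Without S100A6 the sum was 707, 423, 421 and 479.6 FPKM, which is lower in SW1736-PTX than in its parent and higher in 8505C-PTX than in its own.

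**Figure D3:**
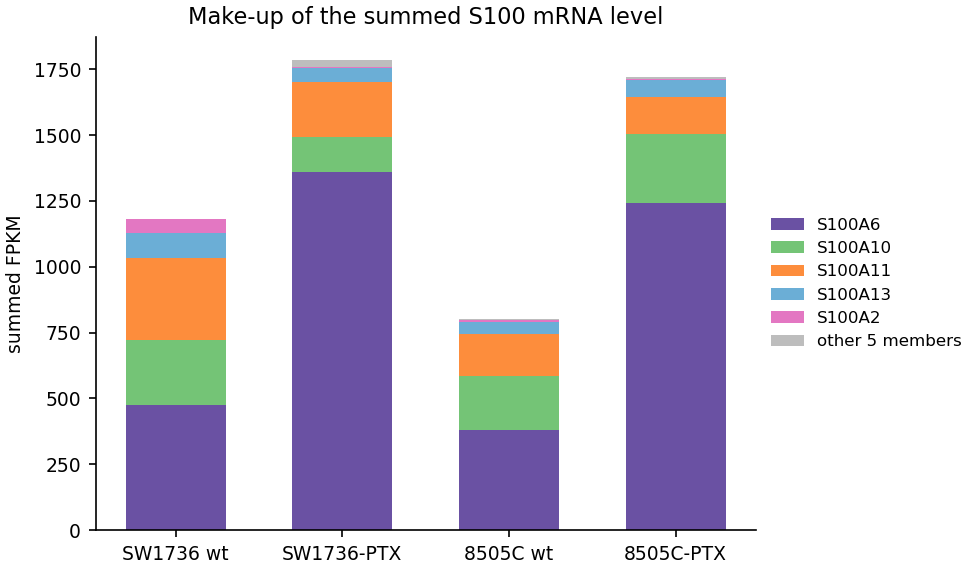
Summed FPKM of the 10 S100 genes in each library, stacked by gene; each bar is 1 library, and the sums take the genes' FPKM as deposited. S100A6 fills 40.3% and 47.4% of the bar in the wt libraries and 76.3% and 72.2% in the PTX libraries.

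Between the parental lines, 2 of 7 compared members were called, beside 17.6% of 13457 genes: S100A4 was higher in 8505C wt (2.30) and S100A2 lower (-3.16). S100A13 (-1.05) and S100A11 (-0.98) were lower without being called. Between the resistant lines, 0 of 8 members were called, beside 7.79% of 13986 genes. The widest differences between 8505C-PTX and SW1736-PTX were those of S100A4 (-1.43), S100A2 (-1.11) and S100A10 (0.99). The median of the members was -0.50 between the wt lines and -0.45 between the PTX lines, beside -0.08 and -0.01 over all genes. Against the wt library of the other line, 4 of 8 members were called in SW1736-PTX, beside 20.4% of all genes (S100A3, S100A4, S100A6 and S100P, all higher), and 3 of 8 in 8505C-PTX, beside 27.8% (S100A4 and S100P higher, S100A2 lower). These comparisons use the same 4 libraries and are not independent of each other.

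On chromosome 1 of hg38, 15 S100 genes, 7 of them members, lay in a cluster of 276 kb between 153357854 and 153634092. The 3 members of the cluster with higher levels in PTX cells were next to each other on the minus strand: S100A6 (153534600 to 153536241), S100A4 (153543619 to 153545806) and S100A3 (153547333 to 153549258), with S100A5, at 0 to 0.0476 FPKM, between the first 2. S100A2 (153561109 to 153565830), the member with lower levels, followed 11.9 kb beyond S100A3. S100A8 (153390032 to 153391188) and S100A9 (153357854 to 153361027) lay at one end, and S100A13 (153618800 to 153634092) at the other. S100A10 (151982910 to 151994238) and S100A11 (152032506 to 152037035) stood outside the cluster on the same chromosome, and S100P (6693839 to 6697170) on chromosome 4. By GENCODE each of the 10 has 3 exons in its canonical transcript except S100P, which has 2, and the values are for whole genes. Within 250 kb of the cluster were 19 other genes, of which 6 were compared in each line. In 8505C 0 of these were called, beside 20.9% of all genes, and in SW1736 1 was called, beside 25.9%. That gene was SLC27A3, a fatty acid transport protein, with 2.87 FPKM in SW1736 wt cells, 0.0284 in SW1736-PTX, 0.598 in 8505C wt and 1.08 in 8505C-PTX (-4.53 in SW1736 and 0.75 in 8505C, and -2.44 for SW1736-PTX against 8505C wt). The other 5, CHTOP, SNAPIN, ILF2, INTS3 and GATAD2B, changed by -0.68 to 0.27 in SW1736 and -1.14 to 0.60 in 8505C.

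**Figure D4:**
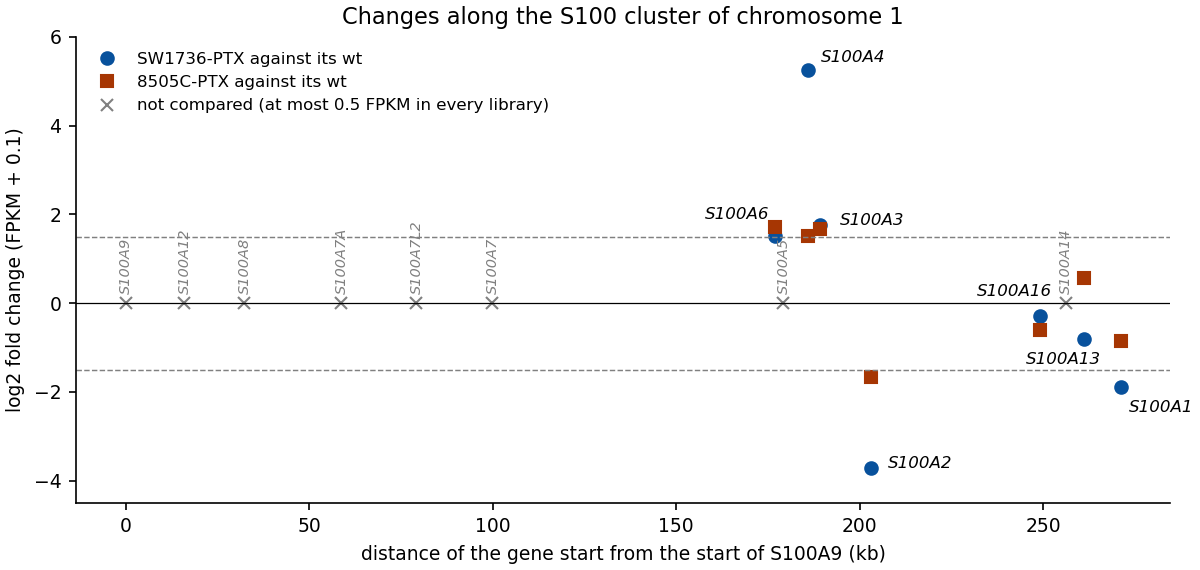
Change on the log2(FPKM + 0.1) scale of the S100 genes in the chromosome 1 cluster against the distance of each gene from S100A9 in kb; circles are SW1736-PTX against SW1736 wt, squares 8505C-PTX against 8505C wt, crosses genes that were not compared, and dashed lines 1.5 and -1.5. S100A6, S100A4 and S100A3, at 177 to 189 kb, lie at 1.51 or above in both lines, and S100A2, at 203 kb, lies at -3.71 and -1.66.

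Of the 11 other S100 family genes, 3 exceeded 0.5 FPKM in any library. S100A16 was at 174 FPKM in SW1736 wt cells, 141 in SW1736-PTX, 199.7 in 8505C wt and 131 in 8505C-PTX and was not called (-0.30 and -0.60). S100A1, the form of heart and skeletal muscle, was at 2.11, 0.501, 0.591 and 0.282 FPKM, and was called lower in SW1736 (-1.88) and not in 8505C (-0.86). Against 8505C wt the value of SW1736-PTX was -0.20 and the call was lost. By the deposited gene extents S100A1 lies entirely within S100A13 on the opposite strand, with 3641 bases in common. The GENCODE canonical transcript of S100A13 reaches only to 153627505, short of that of S100A1, which begins at 153628434. Whether the counting used strand is not given in the sources used here, so reads of the pair could have been mixed where longer S100A13 transcripts were counted. S100G, the intestinal calcium-binding protein calbindin-D9k, was listed at 0 in both wt libraries and was at 0.48 FPKM in SW1736-PTX and 0.651 in 8505C-PTX, from an estimated 13 and 16 reads. S100G was thus, like S100P, detected at a low level in the PTX libraries alone, which list fewer of all gene names at 0 than the wt libraries. The 7 genes that fuse an S100 domain to a long repeat, of which filaggrin (FLG) is the best known, were below the FPKM minimum in SW1736, and FLG alone was compared in 8505C (0.03). FLG was at 0.00849 FPKM in SW1736 wt cells, 0.479 in SW1736-PTX, 1.2 in 8505C wt and 1.23 in 8505C-PTX, and it was called between the wt lines (3.59). Among 8 squamous differentiation genes, 2 were compared in each line and 1 was called, beside 25.9% and 20.9% of all genes. This was IVL, a protein of the cornified envelope, called in both lines, with 0, 2.89, 0.157 and 6.79 FPKM. KRT10 was at 16.1, 25.1, 22.4 and 21.6 FPKM and was not called (0.64 and -0.06). SPRR1A and KRT13 did not exceed 0.223 FPKM, and SPRR1B, SPRR3, KRT1 and LOR were listed at 0 throughout.

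Among 24 partners and receptors of S100 proteins, 23 were compared in SW1736, of which 5 were higher and 1 lower in SW1736-PTX, and 21 in 8505C, of which 0 were higher and 3 lower in 8505C-PTX. The shares called, 26.1% and 14.3%, stand beside 25.9% and 20.9% of all genes, and the median change was 0.09 and -0.13. Against 8505C wt, 3 were higher in SW1736-PTX (BSG, CD36 and SYT1) and 3 lower (MYH10, EZR and DLC1), or 26.1% beside 20.4% of all genes. CD36, SYT1 and DLC1 were thus called against both wt libraries. The receptors came out differently in the lines: TLR4, a receptor of S100A8 and S100A9, was at 0.177 FPKM in SW1736 wt cells, 22.7 in SW1736-PTX, 10.9 in 8505C wt and 15.7 in 8505C-PTX. Its change was 6.36 in SW1736 and 0.52 in 8505C, but SW1736 wt alone was near 0, and against 8505C wt the value of SW1736-PTX was 1.06, which was not called. CD36, a scavenger receptor, was listed at 0 in SW1736 wt and was at 1.21 FPKM in SW1736-PTX, and it did not exceed 0.387 in 8505C. AGER, the receptor of S100P among others, was between 1.35 and 2.92 FPKM and was not called.

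The annexins were not called except ANXA1, the partner of S100A11, at 164 FPKM in SW1736 wt cells, 824 in SW1736-PTX, 416 in 8505C wt and 379 in 8505C-PTX (2.32 and -0.13). Against 8505C wt its value in SW1736-PTX was 0.99, which was not called. The ratio of ANXA1 to S100A11 went from 0.523 to 3.97 between SW1736 wt and SW1736-PTX, and was 2.62 in 8505C wt and 2.77 in 8505C-PTX. ANXA2, chosen here as the partner of S100A10, was at 1247, 1204, 1556 and 994 FPKM, and its ratio to S100A10 was 5.11, 9.08, 7.47 and 3.77. That ratio was thus higher in SW1736-PTX than in its parent and lower in 8505C-PTX than in its own.

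CACYBP, the calcyclin-binding protein, was at 44.1 FPKM in SW1736 wt cells, 26.1 in SW1736-PTX, 65.6 in 8505C wt and 19.9 in 8505C-PTX, with changes of -0.76 and -1.72. SUGT1, a cochaperone that S100A6 also binds, was at 35.6, 16.5, 27.4 and 8.34 FPKM (-1.10 and -1.70). Both were lower in each PTX library than in its parent, and both were called in 8505C and not in SW1736. The ratio of S100A6 to CACYBP was 10.8 and 5.78 in SW1736 wt and 8505C wt and 52.2 and 62.4 in SW1736-PTX and 8505C-PTX.

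Of the proteins released with S100A13, IL1A was called higher in SW1736 (0.0358 and 0.589 FPKM, a change of 2.34, but 1.04 against 8505C wt), and FGF1 was called lower in 8505C (3.43 and 0.931 FPKM, a change of -1.77). SYT1, the synaptotagmin of that complex, was at 0.0483 FPKM in SW1736 wt cells, 8.18 in SW1736-PTX, 0.475 in 8505C wt and 0.913 in 8505C-PTX (5.80 in SW1736, and 3.85 against 8505C wt). DLC1, a protein bound by S100A10, was at 36.8, 3.87, 32.4 and 26.7 FPKM, and it was called in SW1736 (-3.22, and -3.03 against 8505C wt). MYH10, a nonmuscle myosin heavy chain, differed between the lines and not within them, at 8.74 and 8.44 FPKM in SW1736 and 31.5 and 32.8 in 8505C. PLAT, the tissue plasminogen activator, was at 77.8, 51.1, 118 and 207 FPKM and was called between the PTX lines alone.

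**Figure D5:**
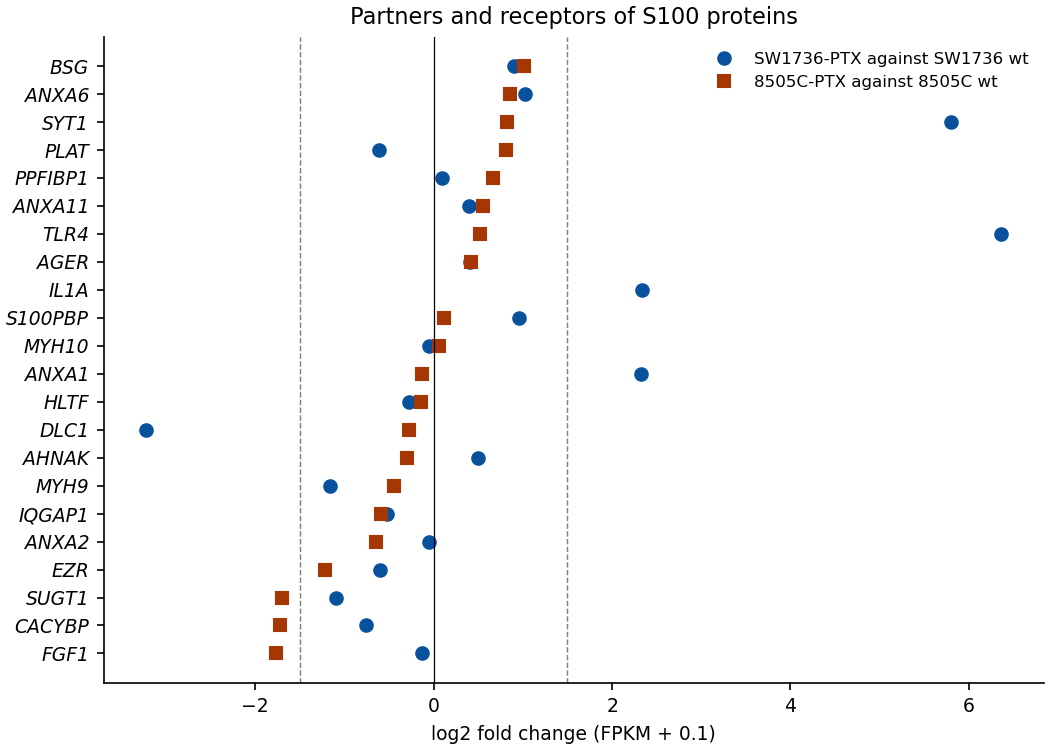
Change on the log2(FPKM + 0.1) scale of the partners and receptors of S100 proteins that had an FPKM above 0.5 in the pair, except CD36, which was listed at 0 in SW1736 wt; circles are SW1736-PTX against SW1736 wt, squares 8505C-PTX against 8505C wt, and dashed lines 1.5 and -1.5. TLR4 (6.36) and SYT1 (5.80) lie far to the right in SW1736, and FGF1, CACYBP and SUGT1 lie below -1.5 in 8505C.

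Of 25 other EF-hand genes, 21 were compared in SW1736, with 2 higher and 2 lower in SW1736-PTX, and 20 in 8505C, with 1 higher and 1 lower in 8505C-PTX. The shares called were 19% and 10.0%, below the 25.9% and 20.9% of all genes. Against 8505C wt 2 were higher and 1 lower in SW1736-PTX, or 14.3% beside 20.4% of all genes. SRI, encoding sorcin, whose gene neighbours ABCB1, was at 29.7 FPKM in SW1736 wt cells, 224 in SW1736-PTX, 36.4 in 8505C wt and 517 in 8505C-PTX (2.91 and 3.82, and 2.62 for SW1736-PTX against 8505C wt). MYL9, a myosin light chain of smooth muscle and stress fibres, was at 199, 1.89, 12.3 and 1.21 FPKM (-6.65 and -3.24, and -2.64 for SW1736-PTX against 8505C wt). CALB2 was called in SW1736 (3.50) and was also higher in SW1736-PTX than in 8505C wt, where it was listed at 0. CETN2, a centrin, was at 64.6 FPKM in SW1736 wt cells, 20.9 in SW1736-PTX, 23.2 in 8505C wt and 18.8 in 8505C-PTX, and its call in SW1736 (-1.62) was lost against 8505C wt (-0.15).

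The levels of S100A2, S100A4 and S100P spanned more than 3 on the log2(FPKM + 0.1) scale, and for these the genes of most similar profile were sought among 14692 genes. The measure was the root mean square difference of the log2 values over the 4 libraries after each gene was centred on its own mean. Near to S100A2 was TMEM200B (0.23), and nearest to S100A4 were CFAP57 (0.14) and SYT5 (0.22). S100P was nearest to LINC00950 (0.01), which was also listed at 0 in both wt libraries, and to CARD16 (0.06), at 3.54 FPKM in SW1736 wt cells, 46.5 in SW1736-PTX, 3.48 in 8505C wt and 33.3 in 8505C-PTX. Since S100P was at 0 in both wt libraries, its range and its likeness to CARD16 depend on the 0.1 FPKM that was added. The likeness of CFAP57 and SYT5 to S100A4 depends on it too, since they were at 0.0614 and 0.0305 FPKM in SW1736 wt. With 4 libraries and many genes such likeness describes these libraries and no more.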

How the data were processed

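The mRNA of SW1736 wt, SW1736-PTX, 8505C wt and 8505C-PTX cells was measured, with 1 library per condition, and conditions were taken from the labels. Per the study's methods, the authors trimmed the reads for adapters and quality, aligned them to hg38 with STAR and quantified genes with StringTie; the submitters' processing notes name bcl2fastq 2.20, and the annotation is not given in the sources used here. The deposited tables give per gene the coverage (the mean signal per base, not scaled by depth), the FPKM computed by the authors with StringTie, and the TPM, which the authors' software scales to an equal total in each library. No read counts were used.

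The FPKM of rows with the same gene name were summed, 0.1 was added, and log2 ratios were taken between libraries for genes above 0.5 FPKM in at least 1 of them. Values beyond 1.5 were called. The limits of 0.5 and 1.5 follow the study's methods, and the pseudocount is a choice made here. No statistical test between conditions was run, since each condition has 1 library. Reads were estimated from FPKM, the length of the GENCODE release 44 canonical transcript and the depth that the ratio of coverage to FPKM gives, and intervals are exact Poisson intervals at 95%, joined for a ratio by an exact binomial interval. The calling script was checked on simulated data, with planted changes well beyond the limit and counting error only. That check shows that the script runs as meant and says nothing about calls near the limit or variation between cultures. Sequences came from RefSeq. Python 3.11.15, NumPy 2.4.6, pandas 2.3.3, SciPy 1.17.1 and matplotlib 3.10.9 were used.

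Genes named are all S100 members, other S100 genes above 0.5 FPKM, list genes called between any 2 libraries compared, the 2 nearest profiles of members ranging over more than 3, ABCB1 and the markers; the neighbours that were not called and ANXA2, AGER, BSG, EZR and S100A5 were named after their values were seen. A few genes that this rule names are left out and not reported here. The members and lists were chosen with earlier results of these data known. Alternatives changed the pseudocount, the FPKM minimum, the unit, the centring, repeated names, the fold limit and the reference library. Protein sequences and the study's other experiments were not used here.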

Additional observations from a re-analysis of the deposited data

How the results depend on the processing

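With 1 library per condition nothing could be left out and the variation between cultures is unknown. No paired analysis was possible because each condition has 1 library and no test was run. Against the other parent no called change of a member changed sign, while the uncalled changes of S100A11 and S100A13 in SW1736 and of S100A13 in 8505C did so (0.39, 0.23 and -0.48). The pseudocount, the FPKM minimum and the fold limit cannot change a sign. With TPM and with centring the called changes kept their signs. Of the 5 members called in SW1736, 3 were called with a pseudocount of 1, 3 with the minimum of 0.5 FPKM applied to both libraries and 3 with a limit of 2. Of the 5 called in 8505C, 1 was called with a pseudocount of 1, 3 with the minimum in both libraries, 1 with a limit of 2, and 3 against SW1736 wt, a count added after seeing the data. Between the wt lines, the 2 calls became 1 with a pseudocount of 1 and 1 with the minimum in both libraries. Between the PTX lines, the 0 calls became 2 with a limit of 1. The pseudocount of 1 shrinks changes of low genes by construction. Of the 31 changes of members compared in the 4 comparisons, 29 kept their side of the limit with TPM, 30 after centring, 24 with a pseudocount of 1 and 31 with one of 0.01. The low read numbers of S100A3, S100P, S100A1 and S100G limit their precision.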
